A study of Homo sapiens with 4 samples.

Results

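The genes described here encode the machinery that opens the cell cycle in late G1: the D cyclins (CCND1, CCND2, CCND3), their kinase partners (CDK4, CDK6), the CDK inhibitors CDKN1B, CDKN1C and CDKN2C, and the pocket proteins RB1 and RBL2. They were chosen by name for these roles, with earlier results of the same arrays known, and each was read from the probe set that the platform annotation assigns to that gene alone. Of the 10 genes, 9 had such a probe set, each of them 1, out of 18377 genes on the array. CDKN2C was not analysed here.

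RNA came from OPM2, an established human multiple myeloma line, a tumour of plasma cells. Background knowledge of the line is that it carries a translocation that activates FGFR3 and NSD2. In the first group, 2 cultures received VS-5584 (SB2343), a compound that inhibits both PI3 kinases and mTOR, for 24 h at 123 nM by the sample labels (125 nM in the series' design text, which places it below the 48-h IC50). In the other group, 2 cultures received the solvent DMSO for 24 h. All 4 RNAs were hybridised to one-colour arrays, and the design text gives the purpose as detecting relatively early response genes.

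D cyclins are made in response to growth signals and switch on CDK4 and CDK6. These kinases phosphorylate RB1 and its relatives, which releases E2F transcription factors and lets S-phase genes be transcribed. CDKN1B (p27) and CDKN1C (p57) block cyclin-CDK complexes, and CDKN2C (p18) binds CDK4 and CDK6 directly. PI3 kinase and mTOR act on this switch at several levels, through FOXO factors, which can activate CDKN1B and RBL2 transcription, and through the translation and stability of the proteins. Myelomas commonly express one D cyclin at a high level. An array reports only the RNA.

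The values are deposited intensities, 1 per probe set and array, on a linear scale. VS-5584 replicate 2 stood apart from the other arrays. Its log2 values had 1.74 units between the quartiles, against 1.93 to 1.95 on the others, and correlated with theirs at r = 0.980 to 0.985 over all probe sets, against 0.993 to 0.996 among the others. Main differences below are therefore also given for each VS-5584 array against the control mean. All 9 plasma cell markers examined, among them IRF4, PRDM1 and XBP1, passed the filter on dim genes (a mean intensity of at least 48.9), and so did FGFR3 and NSD2. Of 5 markers of other cells, CD3E, CD14 and EPCAM were below the filter, and COL1A1 and PECAM1 passed it at intensities of 77.9 to 84.8 and 58.0 to 91.2.

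After VS-5584, RNA of CCND2, CCND3, CDK4 and CDK6 was below both control values on each treated array, and that of CDKN1B was above both. CCND1, CDKN1C, RB1 and RBL2 overlapped between the groups. All the differences were small, the largest being a 1.33-fold lower level of CCND2, and no member passed the test over all genes. The 9 measured members all passed the dim filter and were tested among 11026 genes with limma, a linear model that shares variance information over genes. Of all genes tested, 0 had a Benjamini-Hochberg adjusted p under 0.05 in limma (0% called). At an unadjusted p under 0.05 limma counted 1149 genes, of which CCND2 was the 1 member. Of all genes, 8.93% were lower at that level, a rate of 0.80 in 9, and an ordinary two-sample test called 0 after adjustment and counted 492 before it. The share of tested genes with both VS-5584 arrays below both controls was 29.2%, at which rate 2.6 of 9 members would lie there, and 4 did. The share with both above was 14.7%, at which rate 1.3 of 9 would, and 1 did. These counts are near the background and are no result about the members as a group. An exact permutation test of 2 arrays against 2 cannot go below a two-sided p of 0.333.

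**Figure D1:**
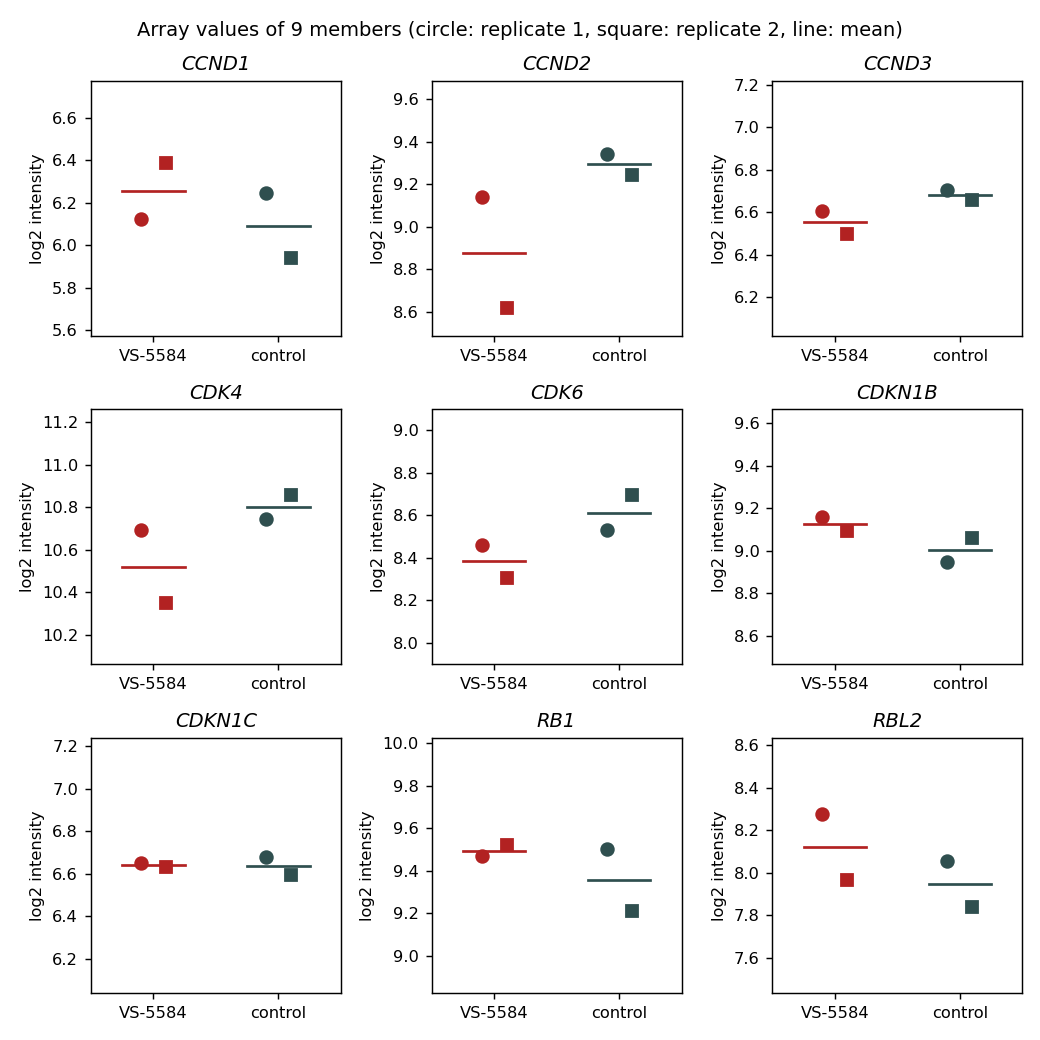
Log2 intensity (vertical axes, each spanning 1.2 log2 units) of the 9 measured genes on the 2 VS-5584 and the 2 control arrays, with circles for replicate 1, squares for replicate 2 and lines for group means. CCND2, CCND3, CDK4 and CDK6 lie below both control values on each VS-5584 array, CDKN1B lies above both, and the groups of the other 4 genes overlap.

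CCND2 is the D cyclin that responds to growth signals in lymphoid cells and is commonly expressed in myelomas with the FGFR3 and NSD2 translocation. Its intensity was 564 and 392 on VS-5584 replicates 1 and 2, against 648 and 607 on control replicates 1 and 2. Both treated values were thus below both controls, and the second was much the lower. The log2 level was 8.88 ± 0.37 in VS-5584 cells and 9.29 ± 0.067 in control cells (SD, n = 2 each). The difference was -0.41 ± 0.18 (SE; 95% interval -0.81 to -0.017; limma adjusted p = 0.469). The difference from the control mean was -0.15 on VS-5584 replicate 1 and -0.68 on replicate 2, so the size of the difference rests largely on the array that stood apart. Without VS-5584 replicate 1 the adjusted p was 0.00473, in a fit that called 23.9% of all genes.

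CCND3, a D cyclin needed by developing and germinal-centre B cells, was at 97.5 and 90.3 on the VS-5584 arrays, against 104 and 101 on the controls. The groups did not overlap, but the difference of -0.13 ± 0.13 (log2, SE) was no larger than its error (limma adjusted p = 0.732), and its 95% interval ran from -0.42 to 0.17. The array differences were -0.075 on VS-5584 replicate 1 and -0.18 on replicate 2. The group difference was -0.063 after cyclic loess normalization between arrays.

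CCND1, the D cyclin activated by translocation in another subset of myelomas, was at 69.7 and 83.6 on the VS-5584 arrays, against 75.9 and 61.3 on the controls. The groups overlapped. The 2 controls differed from each other by 0.31 on the log2 scale, more than the difference of 0.16 ± 0.16 (SE) between the groups (limma adjusted p = 0.727), which was 0.031 on VS-5584 replicate 1 and 0.29 on replicate 2. CCND1 and CCND3 lay near the dim end of the array, where a constant added to the intensities would shrink differences. With 16 subtracted from every intensity the differences were 0.21 for CCND1 and -0.16 for CCND3.

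Both kinases were slightly lower. CDK4 was at 1653 and 1304 on the VS-5584 arrays, against 1716 and 1853 on the controls. The first treated array lay just under the lower control, and the second well under both. The log2 level was 10.52 ± 0.24 in VS-5584 cells and 10.80 ± 0.078 in control cells (SD, n = 2 each). The difference was -0.28 ± 0.15 (SE; 95% interval -0.62 to 0.063; limma adjusted p = 0.552). It was -0.11 on VS-5584 replicate 1 and -0.45 on replicate 2. Without VS-5584 replicate 1 the adjusted p was 0.0250, again in the fit that called 23.9% of all genes.

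CDK6, the other D cyclin kinase, was at 352.5 and 316 on the VS-5584 arrays, against 369 and 414 on the controls. Here the replicates of each group spread about equally, with a log2 SD of 0.11 in VS-5584 and 0.12 in control cells. The difference was -0.23 ± 0.14 (SE; 95% interval -0.54 to 0.084; limma adjusted p = 0.573), with -0.15 on VS-5584 replicate 1 and -0.31 on replicate 2. After cyclic loess it was -0.086 and the groups of CDK6 overlapped. Those of CCND2, CCND3 and CDK4 did not. For CDK4 this was by a very narrow margin, at a log2 level of 10.7060 on VS-5584 replicate 1 against 10.7075 on control replicate 1. At that scaling 24.4% of all genes were below both controls on both treated arrays, so 2.2 of 9 members would be, and 3 were.

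CDK4 is a known target of MYC, which binds the E-box CACGTG, and its promoter is shown because it holds several such boxes. The 250 bases before its start lie on the minus strand at chr12:57752311-57752560 (GRCh38.p14, sequence from RefSeq), with the E-boxes in capitals:
CDK4: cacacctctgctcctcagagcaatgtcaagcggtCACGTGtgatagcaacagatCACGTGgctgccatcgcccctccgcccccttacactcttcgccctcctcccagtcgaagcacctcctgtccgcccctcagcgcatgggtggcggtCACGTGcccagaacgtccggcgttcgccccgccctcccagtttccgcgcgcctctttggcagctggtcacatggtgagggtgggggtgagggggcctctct
The 3 boxes begin 216, 196 and 101 bases before the start. Among the other members whose promoters were available, only CDKN2C held such a box, with 1 in some of its 3 listed promoters. Those of CCND3 and CDK6, which were also lower, held none. In the same 250-base window of 35116 promoters in the table, 6.34% held at least 1 CACGTG, which reads the same on both strands, and 28 held 3 or more. MYC RNA itself was at 856 and 932 on the VS-5584 arrays, against 775 and 1009 on the controls. These groups overlapped, and the sign of the log2 difference of 0.015 ± 0.16 (SE) turned to -0.031 with median centring.

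Among the inhibitors, CDKN1B, which binds and blocks cyclin-CDK2 complexes, was at 572 and 546 on the VS-5584 arrays, against 493 and 534 on the controls. Both treated values were above both controls, though the second exceeded control replicate 2 by little. The log2 level was 9.13 ± 0.049 in VS-5584 cells and 9.003 ± 0.080 in control cells (SD, n = 2 each). The difference was 0.12 ± 0.13 (SE; limma adjusted p = 0.749). The 95% interval of -0.17 to 0.42 reaches up to a 1.34-fold increase. The array differences were 0.16 on VS-5584 replicate 1 and 0.089 on replicate 2. The difference was 0.077, with overlapping groups, after median centring, where 9.14% of all genes and 0 members were above both controls. It was 0.25, without overlap, after cyclic loess.

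The 250 bases before the start of CDKN1B are shown as the promoter of the 1 member higher on both treated arrays. They lie on the plus strand at chr12:12717118-12717367 (GRCh38.p14, sequence from RefSeq), with CCAAT on either strand in capitals:
CDKN1B: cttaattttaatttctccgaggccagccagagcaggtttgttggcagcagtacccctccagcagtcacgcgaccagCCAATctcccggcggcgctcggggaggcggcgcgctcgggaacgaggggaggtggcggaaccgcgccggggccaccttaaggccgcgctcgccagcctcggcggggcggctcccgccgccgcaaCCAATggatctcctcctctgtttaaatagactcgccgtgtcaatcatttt
CCAAT stood 174 and 50 bases before the start, and 9.53% of the promoters held at least 2 matches to it. The forkhead letters TGTTTAC, read on both strands, were not in this window, and 2.98% of all promoters held them. Neither they nor the E2F letters TTTNNCGC, which 5.92% of promoters held, matched any of the 13 promoter entries of the 7 members that the table covers. CCND1, CCND2 and CDKN1C have no entry there.

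CDKN1C, an imprinted inhibitor of the same family, was at 100.6 and 99.1 on the VS-5584 arrays, against 103 and 96.5 on the controls. Both treated values lay between the controls. The difference was 0.0054 ± 0.13 (log2, SE; limma adjusted p = 0.993) and -0.040 with median centring. The 95% interval of the first, -0.29 to 0.30, holds changes of up to about 1.23-fold upward or 1.22-fold downward. Like CCND3, CDKN1C lay near the dim end of the array, where an added constant would shrink differences and this interval.

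The pocket proteins hold E2F factors in check. RB1, the retinoblastoma protein, was at 707 and 735 on the VS-5584 arrays, against 725 and 591 on the controls. The groups overlapped, and control replicate 2 lay below the other 3 arrays. The difference of 0.14 ± 0.15 (log2, SE; limma adjusted p = 0.740) was smaller than the 0.29 between the 2 controls. It was 0.11 on VS-5584 replicate 1 and 0.17 on replicate 2, and without control replicate 2 it was -0.0069.

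RBL2 (p130), the pocket protein of resting cells and part of the repressor complex DREAM, was at 309.8 and 249.98 on the VS-5584 arrays, against 266 and 229 on the controls. VS-5584 replicate 1 was above both controls, and replicate 2 lay between them. The difference was 0.17 ± 0.16 (log2, SE; limma adjusted p = 0.702), with 0.33 on VS-5584 replicate 1 and 0.018 on replicate 2. After cyclic loess the differences were 0.32 for RBL2 and 0.26 for RB1, and the groups of neither overlapped. At that scaling 20.4% of all genes were above both controls on both treated arrays, so 1.8 of 9 members would be, and 3 were.

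**Figure D2:**
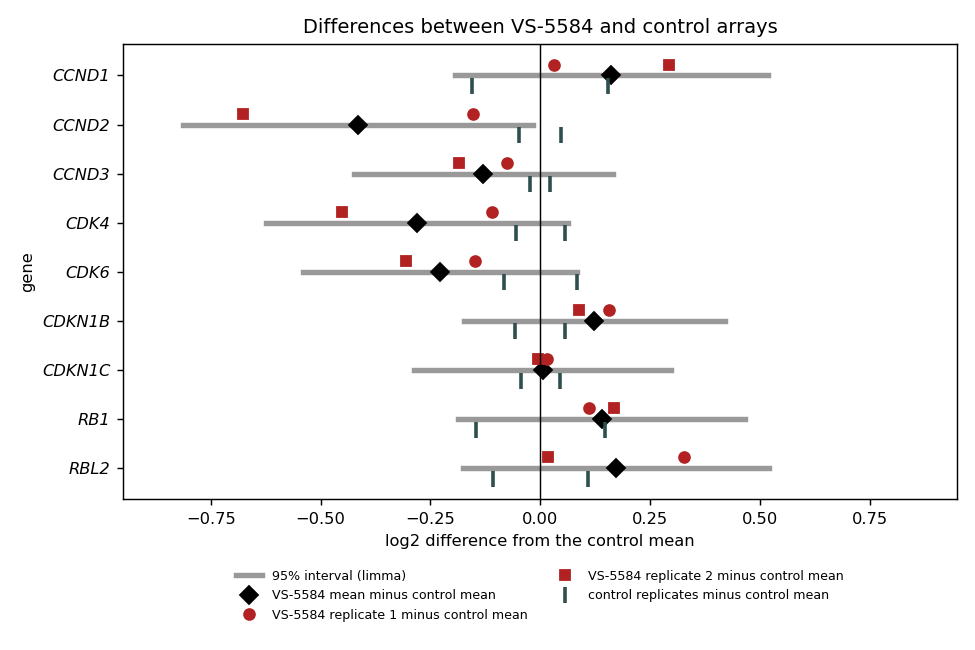
Log2 difference from the control mean (horizontal axis) for each gene, with diamonds for the group difference, grey bars for limma's 95% interval, red circles and squares for VS-5584 replicates 1 and 2, and dark ticks for the 2 controls. The interval of CCND2 (-0.81 to -0.017) is the 1 of the 9 that does not include 0, and the red symbols of CCND2 and CDK4 lie farthest apart.

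On VS-5584 replicate 1 alone, 4 members were below both controls. They are the same 4 as on both arrays. Genes below both controls on both arrays are by definition below them on this one, so this is no check of that count. Of all genes tested, 34.6% were below both controls on this array, a rate of 3.1 in 9. CDKN1B and RBL2 were above both controls on that array, where 33.3% of all genes were. The median log2 difference of the 9 members was 0.0054, against -0.064 for all genes tested. It was 0.016 on VS-5584 replicate 1 and -0.0054 on replicate 2, where that of all genes was -0.0022 and -0.14.

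Because the array that stood apart shifts many genes at once, the lower members were also expressed as a ratio to CDKN1B on the same array. Multiplying a whole array by 1 factor does not change this ratio. It does not remove a difference in spread, such as the narrower spread of VS-5584 replicate 2. The direction of these ratios follows from the choice of genes and is no evidence of its own. Their sizes show how well the treated replicates match. The log2 ratio of CDK6 to CDKN1B was below its control mean by -0.31 on VS-5584 replicate 1 and -0.39 on replicate 2, against deviations of -0.026 and 0.026 on the controls. For CCND3 it was -0.23 and -0.27 on the VS-5584 arrays, against 0.080 and -0.080 on the controls. The ratio of CDK4 differed more between the treated arrays, at -0.27 and -0.54, against 0.0012 and -0.0012 on the controls. That of CCND2 was at -0.31 and -0.76 on the VS-5584 arrays, against 0.10 and -0.10 on the controls. The treated arrays were thus close for CDK6 and CCND3 and apart for CDK4 and CCND2. After cyclic loess the mean differences were -0.54 for CCND2, -0.46 for CDK4, -0.34 for CDK6 and -0.32 for CCND3. Before it they were -0.54, -0.40, -0.35 and -0.25 in the same order.

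**Figure D3:**
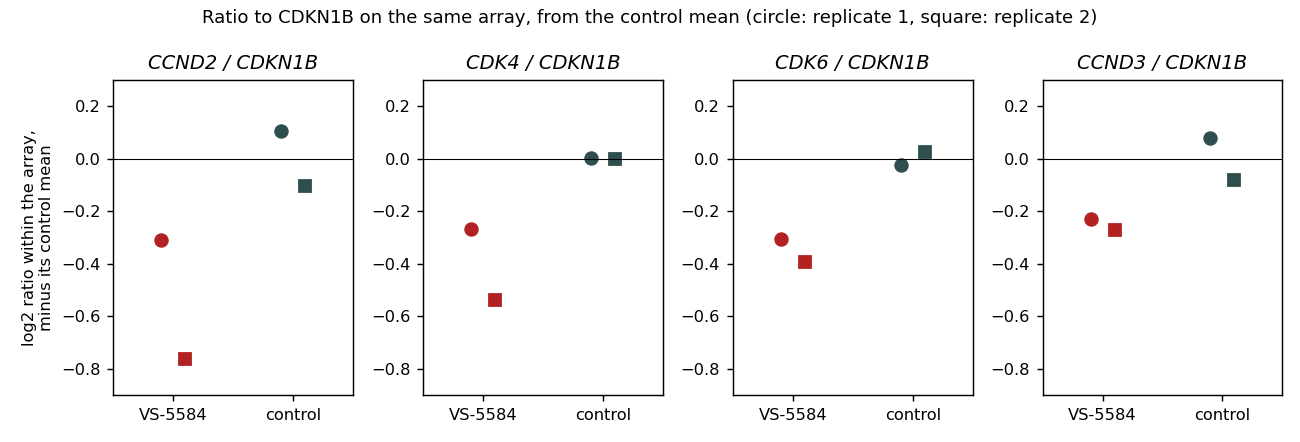
Log2 ratio of CCND2, CDK4, CDK6 and CCND3 to CDKN1B on the same array, minus its control mean (vertical axis), for VS-5584 and control arrays, with circles for replicate 1 and squares for replicate 2. The treated arrays lie at -0.31 and -0.76 for CCND2 and close together for CDK6 (-0.31 and -0.39) and CCND3 (-0.23 and -0.27).

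The remaining CDK inhibitors differed little between the groups in measured intensity, but all lay near the dim end of the array. CDKN1A (p21), CDKN2A, CDKN2B and CDKN2D were all tested, 0 passed and their median log2 difference was 0.020. CDKN1A was at 49.2 to 50.8, close to the dim filter at 48.9, CDKN2A at 75.7 to 84.9 and CDKN2D at 101 to 108. At such levels an added constant would shrink differences, so these values do not show that the RNAs were unchanged. CDKN2B (p15) differed most, with 74.9 and 70.9 on the VS-5584 arrays, against 73.9 and 54.8 on the controls. The groups of CDKN2B overlapped, and its 2 controls differed by 0.43 on the log2 scale, more than the difference of 0.20 ± 0.16 (SE) between the groups. CDKN2A differed by -0.10 ± 0.13, and its groups did not overlap.

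Genes on the E2F side of the switch were lower on average. Among RBL1, E2F1 to E2F8 and the DP genes, 10 of 11 were tested (TFDP2 was below the dim filter), 9 were lower on average, as were 62.7% of all genes, and 7 were below both controls on both treated arrays, as were 29.2% of all genes. Their median log2 difference was -0.31, with -0.13 on VS-5584 replicate 1 and -0.54 on replicate 2, and 0 passed limma. RBL1 (p107), a pocket protein whose gene is itself an E2F target, was at 630.3 and 387 on the VS-5584 arrays, against 758 and 648 on the controls. It differed by -0.50 ± 0.21 (log2, SE), with -0.15 on VS-5584 replicate 1 and -0.86 on replicate 2. The mean differences of RB1 and RBL2 had the opposite sign, but their groups overlapped in the deposited values. The contrast between these genes was not tested. E2F8, a repressor made in S phase, differed by -0.79 ± 0.19, with -0.50 on VS-5584 replicate 1 and -1.08 on replicate 2. E2F1, an activator, differed by 0.017 ± 0.19, a sign that turned to -0.028 with median centring. It was dim, at 80.7 and 71.6 on the VS-5584 arrays, against 91.7 and 61.55 on the controls. These 2 controls differed by 0.58 on the log2 scale, so the value does not show that E2F1 was unchanged. In bulk RNA, fewer cells in a phase of the cycle and less RNA per cell cannot be told apart.

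MuvB is the core complex that RBL2 joins in resting cells and MYBL2 and FOXM1 join in cycling cells. Of its 7 genes and partners, 6 were lower on average and 5 without overlap (62.7% and 29.2% of all genes), and 0 passed limma's threshold. Their median was -0.32, with -0.19 on VS-5584 replicate 1 and -0.44 on replicate 2, and -0.17 after cyclic loess. FOXM1 was at 365 and 222 on the VS-5584 arrays, against 456 and 495 on the controls, a log2 difference of -0.74 ± 0.21 (SE), with -0.38 on VS-5584 replicate 1 and -1.10 on replicate 2. MYBL2 was at 201 and 131, against 254 and 285 on the controls, a difference of -0.73 ± 0.20, with -0.42 and -1.04 on the 2 treated arrays.

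Cyclins E and A, CDK2, its activating phosphatase CDC25A and the CDK-activating kinase (CDK7, CCNH, MNAT1) act next. All 8 were lower on average and 7 without overlap (62.7% and 29.2% of all genes), and 0 passed limma's threshold. Their median was -0.49, with -0.27 on VS-5584 replicate 1 and -0.65 on replicate 2. CCNE1 was at 189 and 133 on the VS-5584 arrays, against 238 and 225 on the controls, a log2 difference of -0.55 ± 0.18 (SE), with -0.29 on VS-5584 replicate 1 and -0.81 on replicate 2. CDC25A differed by -0.72 ± 0.22, with -0.32 on VS-5584 replicate 1 and -1.11 on replicate 2.

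Of the S-phase genes under E2F control, 15 were measured and tested. All 15 were lower on average and 12 without overlap (62.7% and 29.2% of all genes), with a median of -0.45 and 0 past limma's threshold. ORC1, part of the origin recognition complex, was at 104 and 65.1 on the VS-5584 arrays, against 156 and 167 on the controls, a log2 difference of -0.97 ± 0.20 (SE), with -0.63 on VS-5584 replicate 1 and -1.31 on replicate 2. RRM2, a ribonucleotide reductase subunit, differed by -0.77 ± 0.16, with -0.58 and -0.96 on the 2 treated arrays. Limma's adjusted p was 0.254 for both genes, and with 60% of genes left out as dim it was 0.0223 for ORC1 and 0.0380 for RRM2. The median of these 15 genes was -0.23 on VS-5584 replicate 1 and -0.73 on replicate 2, and -0.35 after cyclic loess. That of the 9 members was 0.075 after cyclic loess. The difference between these lists was not tested.

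The ligase that marks CDKN1B protein for destruction, SCF with SKP2, was represented among 11 turnover genes, all tested. Of these, 10 were lower on average, as were 62.7% of all genes, and 0 passed limma's threshold. Without overlap 4 were lower, a share near the 29.2% of all genes. Their median was -0.14, with -0.00099 on VS-5584 replicate 1 and -0.17 on replicate 2. CKS1B, the cofactor that SKP2 needs to bind CDKN1B, was at 2146 and 2087 on the VS-5584 arrays, against 2693 and 2810.2 on the controls. The 2 treated arrays gave nearly the same value for CKS1B on the probe set used, the brightest of several. Its difference was -0.38 ± 0.13 (log2, SE; limma adjusted p = 0.40, and 0.0338 with an intensity trend). With the probe sets of CKS1B averaged the log2 difference was -0.41. SKP2 was at 1170.3 and 957 on the VS-5584 arrays, against 1353 and 1323 on the controls, a difference of -0.34 ± 0.15, with -0.19 on VS-5584 replicate 1 and -0.48 on replicate 2.

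Of 6 measured transcription factors known to act on these genes, 3 were tested, and FOXO3, FOXO4 and BCL6 were below the dim filter. FOXO1 was at 173 and 149 on the VS-5584 arrays, against 177 and 163 on the controls, with overlapping groups and a log2 difference of -0.079 ± 0.14 (SE) that was 0.050 after cyclic loess. FOXO3 was at 39.1 and 44.1 on the VS-5584 arrays, against 43.6 and 40.5 on the controls. MAF, a driver of CCND2 in another myeloma subset, differed by 0.17 ± 0.16, with overlapping groups.

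**Figure D4:**
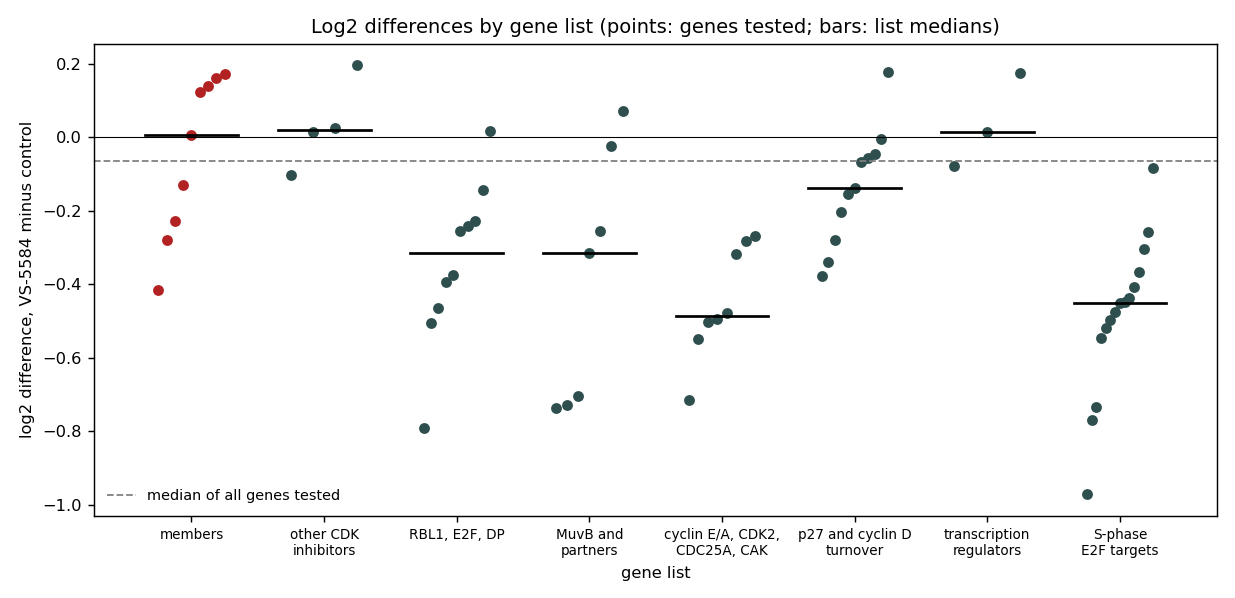
Log2 difference between VS-5584 and control (vertical axis) for each tested gene, by gene list, with black bars for list medians and a dashed line for the median of all genes tested (-0.064). The 9 members (red) spread on both sides of 0 with a median of 0.0054, while all 15 S-phase genes and all 8 genes of cyclin E/A, CDK2, CDC25A and the CDK-activating kinase (CAK) lie below 0.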

How the data were processed

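RNA was labelled with biotin after whole-transcript amplification, per the labels' protocols. The table the authors deposited holds linear intensities of 28869 probe sets on each of 4 arrays. The submitters' processing notes name RMA without a version. The background correction, any added constant and the genome build are not given in the sources used here. Without scanner files no gene can be called above background, and the number of arrays limits precision. The titles call samples biological replicates without saying how cultures were separated, so p-values measure the spread between these samples, which may be technical.

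Intensities were turned into log2 values and not normalized again. Of the probe sets, 19310 carried 1 gene in the platform annotation, 1752 several and 7807 none listed. Symbols were updated by gene ID through RefSeq (19279 matched, 31 kept their symbol). Genes with several probe sets kept the one with the highest mean. The 40% of 18377 genes with the lowest mean were left out, and 11026 were tested two-sided in limma 3.58.1 under R 4.3.3, using lmFit and eBayes, with Benjamini-Hochberg adjustment over all of them and a threshold of 0.05. The code was tested on simulated data. Figures were drawn with matplotlib 3.10.9. The members, lists and tests were chosen with earlier results of these data known, and the promoter motifs with the sequences in view. Every member is named, as are the 2 genes of each other list with the largest difference, plus FOXO1, FOXO3, RBL1, E2F1, SKP2 and MYC. Fits were repeated with cyclic loess, with median centring, with the replicate number as a block, with 16 subtracted from each intensity, with other dim filters, averaged probe sets, an intensity trend or an ordinary two-sample test, and without each array. Counts of members under each scaling and the ratios to CDKN1B were added after the data were seen.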

Additional observations from a re-analysis of the deposited data

How the results depend on the processing

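The count of genes called was 0 in the fit of all 4 arrays, with median centring, with no dim filter, with averaged probe sets and in the ordinary two-sample test. It was 16 after cyclic loess, 2 with 16 subtracted, 58 with 60% of genes left out as dim, 80 with an intensity trend, and 2 to 2636 when 1 array was left out, the highest without VS-5584 replicate 1. No member was called in the fits of all 4 arrays. The log2 differences without VS-5584 replicate 1 were -0.68 for CCND2 and -0.45 for CDK4, each resting on 1 treated array. With the replicate number as a block, 432 genes were called, among them no member but 8 other named genes: ORC1, E2F8, RRM2, FOXM1, MYBL2, CDC25A, CCNE1 and RBL1 (adjusted p = 8.409e-06 to 0.0376). In all, other named genes gained a call in 24 results: these 8, 10 without VS-5584 replicate 1, 3 with 60% left out (E2F8, RRM2, ORC1), 2 with an intensity trend (CKS1B, ORC1) and 1 without control replicate 1 (ORC1). The labels do not say that a number marks a shared culture or day. Same-numbered deviations correlated at 0.16. VS-5584 replicate 1 correlated at r = 0.9963 with control replicate 1 and 0.9934 with control replicate 2. For VS-5584 replicate 2 these were 0.9801 and 0.9842. Whether the arrays were paired by number cannot be told from these values, so the block fit is given only as an alternative.

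The median over the members was -0.040 with median centring, 0.075 after cyclic loess, -0.062 with 60% left out, and -0.039 to 0.050 when 1 array was left out. The count of members above both controls was 0 with median centring (9.14% of all genes) and 3 after cyclic loess (20.4% of all genes). It was 1 to 5 when 1 array was left out. The count below both was 3 to 5 throughout, where 33.3% of all genes were below with median centring and 24.4% after cyclic loess. With fewer arrays, groups overlap less easily. Without VS-5584 replicate 2, 33.3% of all genes were above both controls and 34.6% below. Where another array was left out, the shares of all genes were not counted. The member counts of those fits therefore cannot be set against a background. These counts are no result about the members as a group. Signs turned in 4 results of members and 10 of other named genes. With median centring the log2 differences were -0.040 for CDKN1C, -0.028 for E2F1 and -0.031 for MYC, and after cyclic loess that of FOXO1 was 0.050. When 1 array was left out they ran from -0.039 (without control replicate 2) to 0.050 for CDKN1C, from -0.0069 (without control replicate 2) to 0.29 for RB1, from -0.020 (without control replicate 2) to 0.41 for CDKN2B, from -0.026 (without control replicate 2) to 0.37 for MAF, from -0.27 (without control replicate 2) to 0.30 for E2F1, from -0.19 to 0.029 (without VS-5584 replicate 2) for FOXO1 and from -0.18 (without control replicate 1) to 0.21 for MYC. The sign also turned without VS-5584 replicate 1 for CDKN1C and E2F1, and without VS-5584 replicate 2 for MYC. The cause was not tested. Where leaving out an array left 1 in a group, that array was assumed to vary like the others.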

Other observations

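3 genes of the wider pathway were picked out after their values were seen, because their treated arrays lay well below both controls. LIN9, a core subunit of MuvB, was at 157 and 121 on the VS-5584 arrays, against 226 and 223 on the controls, a log2 difference of -0.70 ± 0.16 (SE; limma adjusted p = 0.254). CDK2, the kinase that CDKN1B blocks, was at 167 and 140.1 on the VS-5584 arrays, against 212 and 219.8 on the controls, a log2 difference of -0.50 ± 0.14 (SE; limma adjusted p = 0.322). E2F7, which represses transcription alongside E2F8, was at 179 and 127 on the VS-5584 arrays, against 206 and 211 on the controls, a log2 difference of -0.47 ± 0.17 (SE; limma adjusted p = 0.422). In each of the 3, VS-5584 replicate 2 was lower than VS-5584 replicate 1, and none of the adjusted p-values above was under 0.05. With the replicate number as a block, limma's adjusted p was 0.00115 for LIN9, 0.0401 for CDK2 and 0.0626 for E2F7. That fit called 432 genes, and whether the arrays were paired by number is not known. Because the genes were picked on these same values, the p-values are no support for them. Without VS-5584 replicate 1 the log2 differences were -0.89, -0.62 and -0.71 in the same order. Other genes also lay below both controls, and CDC6, at -0.73, differed more than CDK2 or E2F7.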
